A study of Mus musculus with 5 samples.

Results

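The small proline-rich (Sprr) genes were followed through 5 RNA-seq libraries from the uterine luminal layer of pregnant mice, from before to just after embryo attachment. The 10 members, Sprr1a, Sprr1b, Sprr2b, Sprr2d, Sprr2e, Sprr2f, Sprr2g, Sprr2h, Sprr2k and Sprr3, were taken by gene symbol from a count table of 23420 genes. They were selected on their counts in these 5 libraries, which were known when the list was made, so every value given for them is a description. The mice were wild-type C57BL/6N females, and the day of the vaginal plug was day 1 of pregnancy. The layer was collected by laser microdissection on day 3 morning, day 4 morning, day 4 evening and day 5 morning. On day 5, 1 library came from the layer away from the attached embryo, labelled as M pole, and 1 from the layer surrounding it, labelled as AM pole. Distance from the embryo and position along the uterine wall therefore cannot be told apart. On day 4, 1 horn was flushed with saline and the other was frozen, and on day 5 a blue dye was injected to show the attachment sites. Each condition had 1 library, so no difference had a replicate check and no p-value is given. The number of animals behind each wild-type library was not given in the sources used here.

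Sprr proteins are short, proline-rich precursors of the cornified envelope, the cross-linked protein shell under the membrane of squamous epithelial cells. Transglutaminases join their glutamine and lysine residues to each other and to partners such as involucrin and loricrin. The genes lie in the epidermal differentiation complex, a cluster of envelope and S100 genes, and AP-1 factors are well-known activators of several of them. In the uterus, Sprr2 genes are known as oestrogen-induced genes of the epithelium.

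The members lay on chromosome 3 of GRCm38, in a span of 169177 bases from position 92316705 to 92485881. The Sprr2 genes were read from the plus strand, and Sprr1b, Sprr3 and Sprr1a from the minus strand. Sprr3 had 3 exons in the count table and the other members 2. The coding region of Sprr2f had 228 bases in GENCODE vM21. By global alignment, its identity with the coding region of Sprr2e was 90.0%, with Sprr2g 88.6%, with Sprr2d 80.8%, with Sprr2k 74.2%, with Sprr2b 66.0% and with Sprr2h 63.3%. Its identity with Sprr1b was 39.6%, with Sprr1a 39.4% and with Sprr3 27.7%. Sprr2g was annotated as a polymorphic pseudogene in GENCODE and as a transcribed pseudogene in RefSeq, with a coding region in 2 blocks that skip 1 base. The coding sequences of the 4 protein-coding Sprr2 members with most counts are shown because the resemblance sets how far their reads can be told apart. Capitals mark the bases that differ from, or are inserted against, Sprr2f.
Sprr2f coding sequence, chr3:92365896-92366123, plus strand: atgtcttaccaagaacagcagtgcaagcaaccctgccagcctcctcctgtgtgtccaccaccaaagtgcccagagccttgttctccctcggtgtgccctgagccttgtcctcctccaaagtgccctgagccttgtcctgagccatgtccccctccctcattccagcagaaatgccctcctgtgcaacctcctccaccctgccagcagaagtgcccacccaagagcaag
Sprr2e coding sequence, chr3:92352864-92353091, plus strand: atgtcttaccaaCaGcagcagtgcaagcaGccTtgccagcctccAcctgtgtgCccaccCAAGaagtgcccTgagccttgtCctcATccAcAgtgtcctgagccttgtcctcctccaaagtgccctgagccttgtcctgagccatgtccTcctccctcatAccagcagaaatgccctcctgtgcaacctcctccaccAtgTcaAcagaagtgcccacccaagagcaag
Sprr2d coding sequence, chr3:92340254-92340508, plus strand: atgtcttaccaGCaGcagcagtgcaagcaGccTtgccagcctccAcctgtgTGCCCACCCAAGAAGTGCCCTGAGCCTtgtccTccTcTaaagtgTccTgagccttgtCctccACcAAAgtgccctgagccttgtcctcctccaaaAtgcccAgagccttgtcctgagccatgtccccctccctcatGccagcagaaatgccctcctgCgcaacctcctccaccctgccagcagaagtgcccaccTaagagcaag
Sprr2b coding sequence, chr3:92317449-92317742, plus strand: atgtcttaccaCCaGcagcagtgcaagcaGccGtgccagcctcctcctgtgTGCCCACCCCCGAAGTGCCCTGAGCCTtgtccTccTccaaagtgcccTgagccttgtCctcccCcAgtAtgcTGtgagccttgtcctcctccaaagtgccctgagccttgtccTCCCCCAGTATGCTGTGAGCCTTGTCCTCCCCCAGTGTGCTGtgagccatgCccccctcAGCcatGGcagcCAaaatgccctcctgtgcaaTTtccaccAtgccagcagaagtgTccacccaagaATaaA

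In the transcripts of Sprr2f, 99.3% of all windows of 50 bases were found in no other gene, against 95.7% for Sprr2d, 89.8% for Sprr2e and 85.9% for Sprr2b. The shared windows of Sprr2b were shared with Sprr2a1, Sprr2a2 and Sprr2a3, those of Sprr2d with Sprr2e and Sprr2i, those of Sprr2e with Sprr2d, Sprr2f and Sprr2i, and those of Sprr2f with Sprr2e. For windows of 100 bases the share was 98.9% or more in every member. Sprr2g, Sprr2h, Sprr2k, Sprr1a, Sprr1b and Sprr3 had no shared window at either length. How the authors' counting treated reads with several alignments was not given in the sources used here, so low values of Sprr2b, Sprr2d and Sprr2e are the least certain.

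The bases before the start site were also compared, since several members moved together. RefSeq promoters (GRCm38.p6) were found for 9 of the 10 members, all but Sprr2g. Motifs were searched on both strands in the 250 bases before the start. An AP-1 match (TGANTCA) was present in 8 of the 9, all but Sprr3, against 6.87% of 27025 promoters. A TATA box (TATAAA) was present in 9 of 9, against 13.0% of all promoters. The octamer core TTTGCAT, added to the search after the sequences had been seen, was present in the 6 Sprr2 promoters, against 4.06% of all. The STAT motif TTCNNNGAA was in 0 of the 9 (7.18% of all), the ETS core AGGAAG in 3 (29.2%), the KLF motif CACCC in 5 (51.3%) and the nuclear receptor hexamer AGGTCA in 1 (13.8%). These motifs did not separate the counted members from those without counts, because Sprr2k and Sprr1b held AP-1 and TATA box matches and had no counts in any library. The 210 bases before the start of 4 counted members and of these other two are shown on the strand of each gene, with AP-1, octamer core and TATA box matches in capitals.
Sprr2f promoter, chr3:92364977-92365186, plus strand: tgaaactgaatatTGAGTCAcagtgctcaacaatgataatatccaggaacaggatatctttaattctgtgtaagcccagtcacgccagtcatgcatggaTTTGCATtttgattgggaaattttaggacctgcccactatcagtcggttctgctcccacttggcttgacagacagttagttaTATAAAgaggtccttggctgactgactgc
Sprr2b promoter, chr3:92316495-92316704, plus strand: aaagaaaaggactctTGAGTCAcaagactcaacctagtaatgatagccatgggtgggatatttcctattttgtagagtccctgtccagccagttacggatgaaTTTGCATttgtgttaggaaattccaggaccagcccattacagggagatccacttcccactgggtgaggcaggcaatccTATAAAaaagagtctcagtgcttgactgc
Sprr2d promoter, chr3:92338930-92339139, plus strand: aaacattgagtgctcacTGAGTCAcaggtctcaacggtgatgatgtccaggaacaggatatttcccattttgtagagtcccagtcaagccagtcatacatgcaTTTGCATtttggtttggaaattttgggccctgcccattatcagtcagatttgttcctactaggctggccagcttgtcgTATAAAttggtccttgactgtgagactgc
Sprr1a promoter, chr3:92485882-92486091, minus strand: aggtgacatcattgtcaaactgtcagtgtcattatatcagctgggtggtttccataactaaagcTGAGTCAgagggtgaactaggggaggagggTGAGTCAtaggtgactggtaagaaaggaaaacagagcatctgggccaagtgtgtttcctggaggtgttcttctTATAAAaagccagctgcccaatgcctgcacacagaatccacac
Sprr2k promoter, chr3:92432372-92432581, plus strand: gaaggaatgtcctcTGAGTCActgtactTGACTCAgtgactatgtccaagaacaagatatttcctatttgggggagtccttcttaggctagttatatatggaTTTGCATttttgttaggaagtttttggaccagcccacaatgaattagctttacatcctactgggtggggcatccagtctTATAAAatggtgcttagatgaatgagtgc
Sprr1b promoter, chr3:92438780-92438989, minus strand: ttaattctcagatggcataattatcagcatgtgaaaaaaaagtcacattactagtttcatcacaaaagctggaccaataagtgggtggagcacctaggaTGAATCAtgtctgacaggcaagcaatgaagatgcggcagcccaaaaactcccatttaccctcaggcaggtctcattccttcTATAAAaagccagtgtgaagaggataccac

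Counted from the start site, the AP-1 match began at position -197 in Sprr2f, -195 in Sprr2b and -193 in Sprr2d. Sprr2k had a pair of matches, at -196 and -182, as did Sprr1a, at -146 and -116, while the match of Sprr1b lay at -111. A match says only that the letters are present. The aligned promoters of Sprr2d and Sprr2e were identical at 91.9% of positions, those of Sprr2f and Sprr2e at 77.1% and those of Sprr2f and Sprr2b at 65.1%, whereas those of Sprr1a and Sprr1b shared 51.9%.

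The libraries held between 15334674 and 19529491 counts, and 15274 to 15888 genes were counted. Rn45s and Lars2 took 15.0% to 23.2% of a library. A floor of 3 counts corresponded to between 0.160 and 0.190 CPM (counts scaled to library size with TMM factors). All 13 luminal epithelial markers (among them Krt8, Epcam and Cdh1) were counted in every library, with a summed level of 6262 to 9862 CPM. The highest level was that around the embryo. Markers of other cells were present at lower levels, and those that moved in the library around the embryo are given beside that result. Fewer cells of a type and less RNA per cell cannot be told apart in such libraries.

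Sprr2f was the most abundant member in 3 of the 5 libraries. Its counts were 18988 in the day 3 morning library, 2253 and 7335 in the morning and evening libraries of day 4, and 953 away from and 101770 around the embryo on day 5. Per kilobase of gene length, these were levels of 1764, 207, 765, 83.4 and 9839 RPKM. The level around the embryo was the highest of the 5 and ranked 3 among all genes of that library by RPKM.

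Sprr2g, the annotated pseudogene, had 4457 counts in the day 3 library, 879 and 10278 in the morning and evening libraries of day 4, and 1114 away from and 9844 around the embryo. Its levels were 387, 75.6, 1002, 91.2 and 890.3 RPKM. Day 4 evening and day 5 around the embryo were thus its high libraries, and they differed little from each other.

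Sprr2b, Sprr2d and Sprr2e, the members at the low-coordinate end of the cluster, had few counts in every library but 1. Sprr2b had 85, 0, 52, 3 and 20433 counts in the same order of libraries. Sprr2d had 69, 10, 20, 4 and 6961 counts. For Sprr2e the counts were 42, 15, 10, 15 and 4398. In each of the 3 genes the library around the embryo was far above all others, at 1721, 602 and 400.2 RPKM, while no other library exceeded 6.88 RPKM.

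Sprr1a, the only Sprr1 member with counts, had 190 in the day 3 library, 2 and 69 in the morning and evening libraries of day 4, and 12 away from and 2104 around the embryo. Its levels ran from 0.142 RPKM on day 4 morning to 157 RPKM around the embryo. Sprr2h had 22 counts around the embryo (1.73 RPKM) and 0 in the other libraries. Sprr1b, Sprr2k and Sprr3 had 0 counts in all 5 libraries, where 3 counts are the limit that a count of 0 allows.

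**Figure D1:**
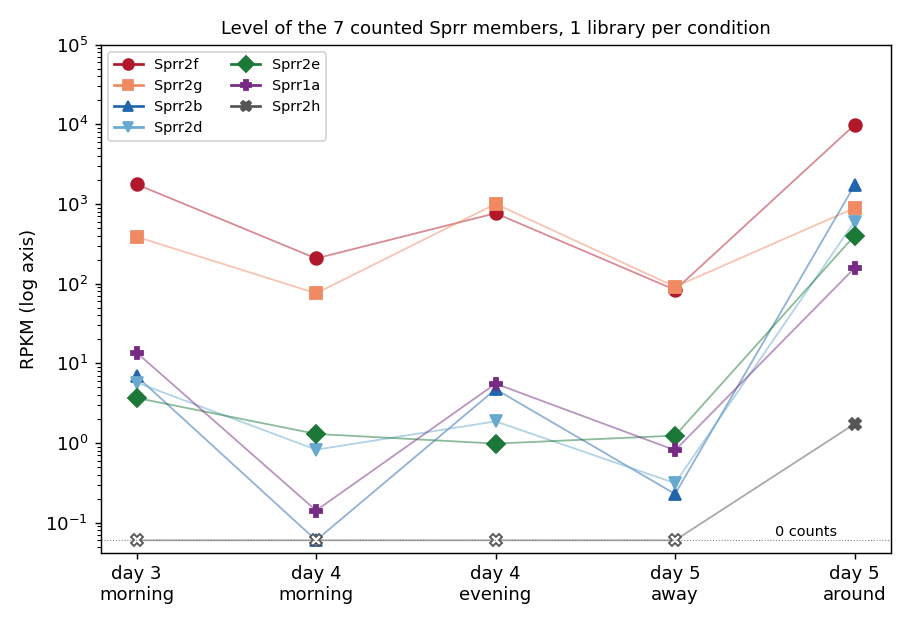
Level (RPKM, log axis) of the 7 members with counts in each of the 5 libraries, 1 library per condition. Open symbols on the dotted line mark 0 counts. All 7 lie higher around the embryo than away from it on day 5, and Sprr2f reaches 9839 RPKM there.

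The table held 5 further Sprr genes. Sprr2i had 1, 0, 4, 0 and 118 counts in the same order of libraries, and Sprr4 had 3 counts around the embryo only. Sprr2a1, Sprr2a2 and Sprr2j-ps had 0 in all. The zeros of Sprr2a1 and Sprr2a2 carry no information on expression, because both had the same exon coordinates, and all 166 features of the table with such duplicate coordinates were at 0 in every library, against 22.5% of all genes.

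Summed over the 10 members, the level was 1349 CPM in the day 3 library, 177 and 1128 CPM in the morning and evening libraries of day 4, and 112 CPM away from and 8568 CPM around the embryo. As a share of all counts these were 0.155%, 0.0162%, 0.107%, 0.0126% and 0.761%. The summed level thus alternated between high and low over the first 4 libraries and was highest around the embryo. For each comparison below, a gene was called when its log2 CPM (prior count 2) differed by more than 1, and the comparison took in the 12918 genes whose mean CPM reached 1. Of the 10 members, 6 passed this filter, and the same number passed it on the mean of the other 4 libraries, without the library around the embryo. The 4 others were Sprr2h, Sprr2k, Sprr1b and Sprr3. Intervals are exact 95% intervals of the ratio of 2 counts and cover counting error only. The median log2 difference of all genes lay within 0.04 of 0 in every comparison. With library totals in place of TMM this median reached -0.36 in 1 comparison, around against away from the embryo, and the shares of genes called are given with both scalings where they differ most. Several comparisons share a library and are not independent of each other. Since the members were selected with these counts known, nothing is read from how many of them were called.

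From day 3 to day 4 morning, the summed level was 7.63-fold lower (interval 7.35 to 7.92). All 6 members compared were called lower, with a median log2 difference of -2.83, where 11.0% of all genes were called lower and 7.96% higher (17.1% and 4.16% with library totals). Sprr2f was 8.52-fold lower (interval 8.15 to 8.90) and Sprr2g 5.13-fold lower (interval 4.77 to 5.52). Sprr1a, from 190 to 2 counts, was 96.0-fold lower (interval 26.2 to 799), and Sprr2b, from 85 to 0, at least 28.6-fold lower. The smallest difference was that of Sprr2e, 2.83-fold lower (interval 1.54 to 5.49).

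Between day 4 morning and day 4 evening, the summed level was 6.38-fold higher (interval 6.14 to 6.62). Of the 6 members, 5 were called higher and 0 lower, where 7.15% of all genes were called higher and 6.96% lower. The members differed in size of change. Sprr2g was 13.3-fold higher (interval 12.4 to 14.2), whereas Sprr2f was 3.69-fold higher (interval 3.52 to 3.87). Sprr1a, from 2 to 69 counts, was 39.1-fold higher (interval 10.4 to 329), and Sprr2b, from 0 to 52, at least 19.7-fold higher. Sprr2d, from 10 to 20 counts, passed the call narrowly at 2.27-fold (interval 1.01 to 5.42). Sprr2e, with 15 and 10 counts, gave a ratio of 0.756 (interval 0.304 to 1.80).

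Away from the embryo on day 5, the members returned to low levels. The summed level was 10.1-fold lower than on day 4 evening (interval 9.63 to 10.5). Of the 6 members, 5 were called lower and 0 higher, where 12.9% of all genes were called lower and 12.7% higher (9.78% and 17.4% with library totals). Sprr2g was 11.0-fold lower (interval 10.3 to 11.7), Sprr2f 9.17-fold lower (interval 8.57 to 9.82) and Sprr1a 6.85-fold lower (interval 3.68 to 13.9). Sprr2e, at 10 and 15 counts, was not called.

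Set against day 4 morning, the layer away from the embryo gave mixed results. The summed level was 1.58-fold lower (interval 1.49 to 1.67), and 2 members were called higher and 2 lower, where 14.6% and 14.5% of all genes were (20.8% and 10.8% with library totals). Sprr2f was 2.48-fold lower (interval 2.30 to 2.68), and Sprr2g gave a ratio of 1.21 (interval 1.10 to 1.32), which was not called. The other calls rested on few counts. Sprr2d went from 10 counts to 4, with an interval that included equality. Sprr2b had 0 and 3, so no fold is given, and Sprr1a had 2 and 12, a ratio of 5.71 (interval 1.27 to 52.5).

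Around the embryo, the summed level was 76.6-fold higher than away from it (interval 73.3 to 80.0). It was 48.4-fold higher than on day 4 morning (interval 46.8 to 50.2) and 7.60-fold higher than on day 4 evening (interval 7.48 to 7.72). All 6 members were called higher than away from the embryo, where 13.7% of all genes were called higher and 14.5% lower (9.97% and 21.7% with library totals). The 6 were also called higher than on day 4 morning, where 20.9% of all genes were called higher and 22.4% lower. Against day 4 evening 5 members were called higher and 0 lower, where 19.3% and 20.4% of all genes were.

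The ratio of the day 5 libraries ranged widely among the members. Sprr2g was 9.77-fold higher around the embryo (interval 9.18 to 10.4), Sprr2f 118-fold (interval 111 to 126), Sprr1a 194-fold (interval 111 to 376) and Sprr2e 324-fold (interval 196 to 579). Sprr2d, with 4 counts away from the embryo, gave a ratio of 1923 (interval 751 to 7061). Sprr2b, with 3, gave a ratio of 7527 (interval 2575 to 36502). Its log2 difference of 12.10 was exceeded by 0 of the 12918 genes, that of Sprr2d by 6 and that of Sprr2f by 47. Sprr2h, with 22 counts against 0, was at least 8.10-fold higher.

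**Figure D2:**
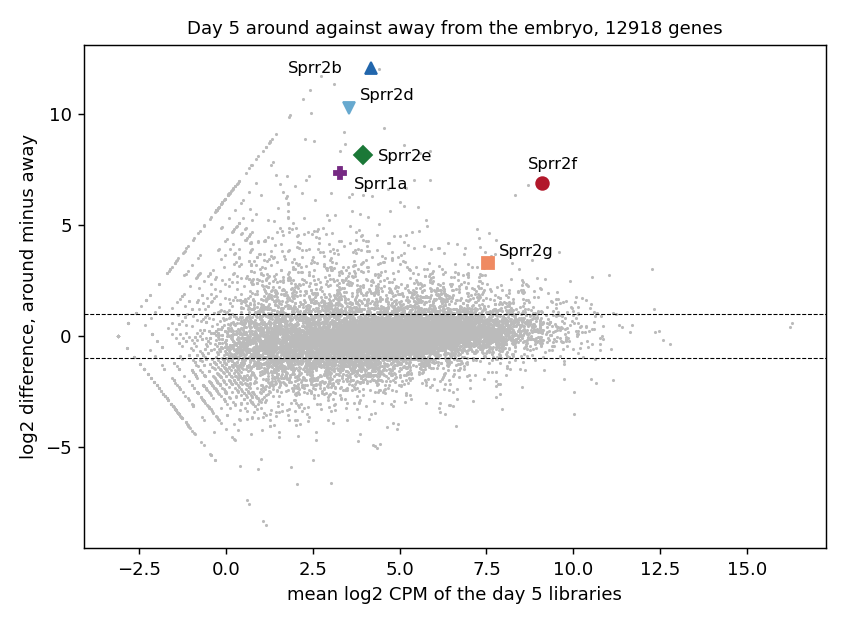
Log2 difference between the day 5 libraries (around minus away) against their mean log2 CPM for 12918 genes (grey), with the 6 compared Sprr members in colour. Dashed lines mark log2 differences of 1 and -1. Sprr2b stands at the top at 12.10 and Sprr2g, the lowest of the 6, at 3.29.

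The members also differed widely when set against day 4 evening. Sprr2e was 408-fold higher around the embryo (interval 222 to 851), Sprr2b 364-fold (interval 278 to 488) and Sprr2d 323-fold (interval 209 to 529). Sprr1a was 28.3-fold higher (interval 22.3 to 36.5) and Sprr2f 12.9-fold (interval 12.6 to 13.2). Sprr2g gave a ratio of 0.888 (interval 0.864 to 0.913) and was not called. In relation to day 4 morning, Sprr2d was 732-fold higher (interval 398 to 1527), Sprr2f 47.5-fold (interval 45.6 to 49.5) and Sprr2g 11.8-fold (interval 11.0 to 12.6), and Sprr2b, from 0 counts, at least 7162-fold.

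The make-up of the summed counts changed with the stage. Sprr2f took 79.7% of them on day 3 morning (exact 95% binomial interval 79.2% to 80.2%), 71.3% and 41.3% in the morning and evening of day 4 (interval of the latter 40.6% to 42.0%), and on day 5 45.4% away from the embryo and 69.9% around it. Sprr2g took 18.7%, 27.8%, 57.9%, 53.0% and 6.76% in the same order. Sprr2b, Sprr2d and Sprr2e together took between 0.462% and 1.05% in the first 4 libraries and 21.8% around the embryo (interval 21.6% to 22.1%). The Sprr2 members as a whole took at least 98.6% of the counts in each library.

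**Figure D3:**
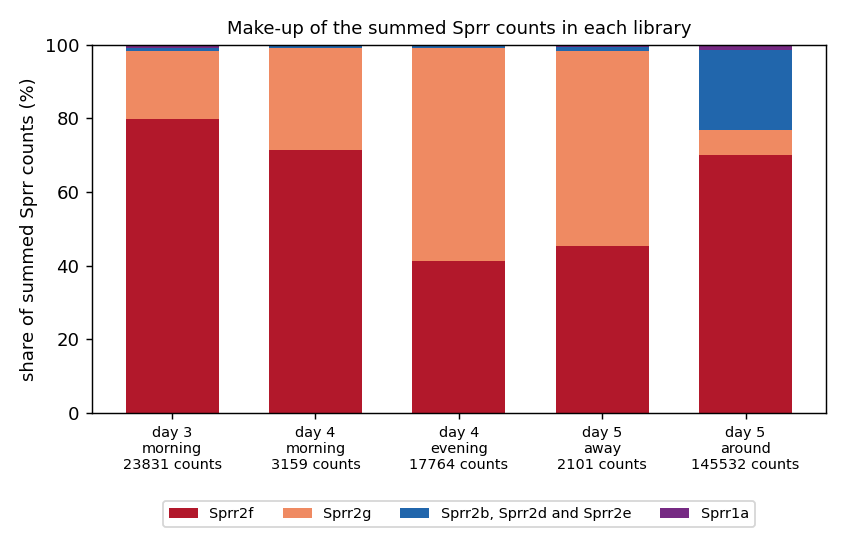
Share (%) of the summed Sprr counts taken by Sprr2f, by Sprr2g, by Sprr2b, Sprr2d and Sprr2e together, and by Sprr1a in each library, with the summed counts below each bar. Sprr2g takes the largest share on day 4 evening (57.9%) and away from the embryo (53.0%), and Sprr2b, Sprr2d and Sprr2e reach 21.8% around it.

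Ratios within a library do not depend on how libraries were scaled. Per length, Sprr2f exceeded Sprr2g 4.55-fold on day 3 morning (interval 4.41 to 4.71) and 2.74-fold on day 4 morning (interval 2.53 to 2.97). On day 4 evening the ratio was 0.763 (interval 0.740 to 0.786), so Sprr2g was the higher gene. Away from the embryo it was 0.914 (interval 0.838 to 0.998), close to equality, and around the embryo 11.1 (interval 10.8 to 11.3). Sprr2f exceeded Sprr2b 256-fold on day 3 morning (interval 207 to 321) and 5.72-fold around the embryo (interval 5.63 to 5.80).

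Around the embryo the order of RPKM levels was Sprr2f, Sprr2b, Sprr2g, Sprr2d, Sprr2e, Sprr1a and Sprr2h. Sprr2b exceeded Sprr2g there 1.93-fold (interval 1.89 to 1.98) and Sprr2d exceeded Sprr2e by a ratio with an interval of 1.45 to 1.56. In the other libraries several neighbours in the order could not be separated by counting error. Sprr2b and Sprr2d on day 3 morning gave a ratio of 1.20 (interval 0.863 to 1.67), and Sprr2d and Sprr2e a ratio of 0.633 on day 4 morning (interval 0.254 to 1.51). The ratio of Sprr1a to Sprr2b on day 4 evening was 1.17 (interval 0.807 to 1.72).

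Luminal epithelial markers summed to 9862 CPM around the embryo and 6849 CPM away from it. Between these libraries, 7 of the 13 were called higher around the embryo and 0 lower (median log2 difference 1.23). Of all genes, 13.7% were called higher and 14.5% lower. Markers of other cells also moved in the library around the embryo. Of 13 embryo markers, all were above 3 counts there, and 5 (Pou5f1, Nanog, Cdx2, Gata4 and Zfp42) were counted in no other library. Pou5f1, a pluripotency factor, had 68 counts, and Zfp42 had 246. The summed embryo list, which is dominated by Sox17, a gene with at least 14211 counts in every library, ranged from 765 to 2157 CPM in the other libraries and was 2460 CPM here. Of 8 embryo markers compared between the day 5 libraries, 8 were called higher around the embryo (median log2 difference 4.12). Markers counted in no other library had to be higher there. Muscle markers summed to 420 CPM around the embryo against 16.2 to 37.9 CPM elsewhere, of which Des, the gene of desmin, held 6090 counts. Of 6 muscle markers compared between the day 5 libraries, 6 were called higher around the embryo (median 1.66), where 13.7% of all genes were. Stromal markers summed to 545 CPM against 728 to 842, and immune markers to 116 CPM against 279 to 413. Around against away from the embryo, 1 of 13 stromal markers was called higher and 6 lower. Of 8 immune markers compared, 1 was called higher and 6 lower, where 13.7% and 14.5% of all genes were. Gland markers summed to 31.6 CPM against 1.90 to 5.15, and endothelial markers to 102 CPM against 13.3 to 46.3. Of 6 endothelial markers compared between the day 5 libraries, 2 were called higher and 2 lower around the embryo (median log2 difference -0.23). Of 4 gland markers compared between the day 5 libraries, 4 were called higher and 0 lower around the embryo (median log2 difference 2.43). Against day 4 morning, 3 of the 4 were called higher and 1 lower, where 20.9% and 22.4% of all genes were. Of 3 blood genes, the paralogs Hba-a1 and Hba-a2 were at 0 throughout. The treatment of reads with several alignments was not given, so these zeros carry little information on blood. Alas2 had 2 counts around the embryo, 0.118 CPM against 0.320 to 1.90 CPM in the other libraries. The part of these cells in the Sprr values was not tested.

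In the neighbourhood of the cluster, the window of 500000 bases on either side of the members held 26 genes that are not Sprr genes, of which 17 had 0 counts in all libraries. These silent genes were mostly of the late cornified envelope (Lce) family. Ivl, which encodes the envelope scaffold protein involucrin, had 81, 0, 0, 46 and 565 counts from day 3 morning to day 5 around the embryo. It was 13.6-fold higher around the embryo than away from it (interval 10.04 to 18.8). Lce3a had 839 counts around the embryo and 0 elsewhere, and Lce3c had 115 counts on day 3 morning, 95 around the embryo and 0 elsewhere. Lor, the gene of loricrin, was highest on day 3 morning at 67 counts and had 12 around the embryo.

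**Figure D4:**
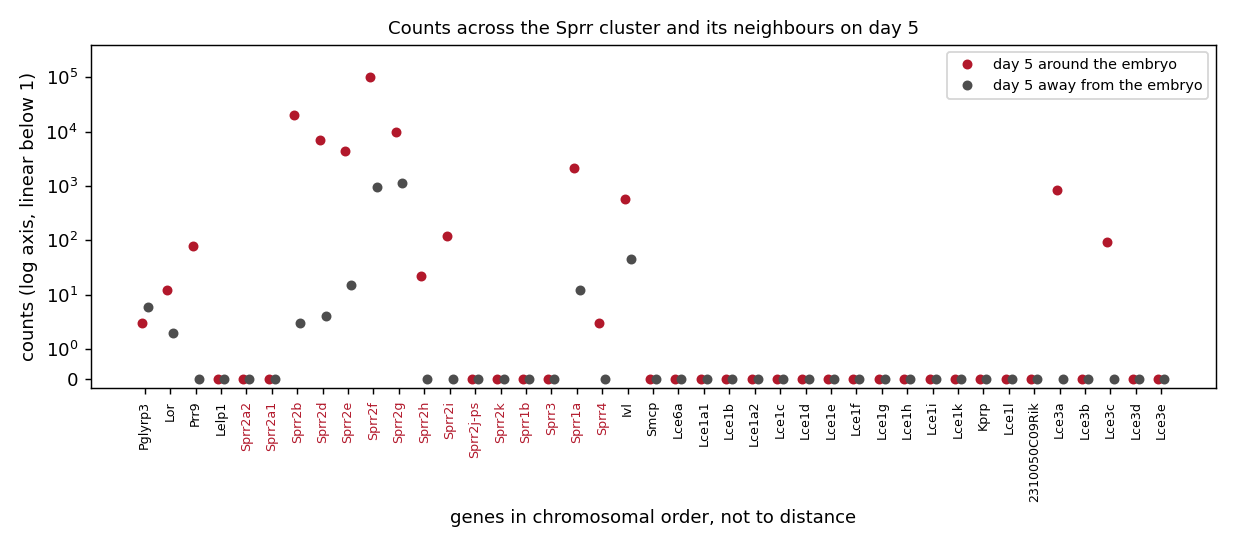
Counts (log axis, linear below 1) in the day 5 libraries for the Sprr genes (red names) and the other genes within 500000 bases, in chromosomal order. Sprr2b to Sprr2g carry most counts, and most genes after Ivl are at 0 in both libraries.

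Other parts of the envelope machinery were compared between day 5 around the embryo and day 4 morning, where 20.9% of all genes were called higher and 22.4% lower. Of 35 other envelope precursor genes of the complex, 6 passed the filter, 5 were called higher and 0 lower. Of these, Crct1, Lce3a and Rptn were at 0 in the other 4 libraries and passed the filter only through this one. The same held, with few counts elsewhere, for S100a3, S100a8 and S100a9, for Dmkn, Pkp1 and Sbsn, for Krt6a, Krt6b, Krt14 and Krt16, and for Fosl1, and such genes had to be higher there. Counts and medians without them are therefore given for each list. Of the 3 precursors left, 2 were called higher and 0 lower (median log2 difference 5.63). Crct1, a cysteine-rich gene of the complex, had 1811 counts. Of 11 S100 genes of the same complex that passed, 8 were called higher and 0 lower, among them S100a3, from 0 to 2947 counts, and S100a8, 83.7-fold higher (interval 47.7 to 163). Without the genes that passed only through this library, 5 of 8 were called higher and 0 lower (median 1.95).

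Genes that cross-link or hold the envelope moved in both directions, with 9 of 14 called higher and 3 lower, or 6 and 3 of the 11 that passed without the library around the embryo (median of these 1.01). Tgm1, the transglutaminase of the keratinocyte membrane, had 10, 6, 4, 52 and 385 counts from day 3 morning to day 5 around the embryo. Tgm2, the widely expressed tissue transglutaminase, was 18.4-fold higher than on day 4 morning (interval 16.6 to 20.4), and Serpinb5, the gene of maspin, 44.0-fold higher (interval 36.5 to 53.7). The plakin genes were lower, with a ratio of 0.198 for Ppl (interval 0.181 to 0.216) and 0.469 for Evpl (interval 0.342 to 0.637), as was Anxa1 at 0.184 (interval 0.178 to 0.190). Of 8 squamous keratins that passed, 6 were called higher and 1 lower. Of the 4 that passed without the library around the embryo, 2 were called higher and 1 lower (median 2.65). Krt17, a keratin of stressed and proliferating epithelium, had 269, 3, 51, 31 and 11660 counts. Krt10, a keratin of differentiated epidermis, was lower at a ratio of 0.438 (interval 0.379 to 0.504).

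Transcription factor genes listed for squamous and envelope gene control were also compared between day 5 around the embryo and day 4 morning. Among 28, 17 were called higher and 4 lower, where 20.9% and 22.4% of all genes were. Without Fosl1, 16 of 27 were called higher and 4 lower (median 1.23). Fos, an AP-1 subunit, had 243, 245, 1158, 360 and 1783 counts from day 3 morning to day 5 around the embryo. It was high in the same libraries as Sprr2g from day 4 onwards. Its ratio of day 4 to day 3 morning was 0.997 (interval 0.832 to 1.20), a comparison in which the Sprr genes were lower. A role of Fos in the Sprr levels was not tested. Junb, another AP-1 subunit, was 4.23-fold higher around the embryo than on day 4 morning (interval 4.10 to 4.37), and Jun gave a ratio of 0.844 (interval 0.779 to 0.914). Klf4, a factor of epidermal barrier formation, was 21.2-fold higher (interval 18.4 to 24.5), and Grhl1, a factor of desmosomal gene control, 66.3-fold higher (interval 47.3 to 96.1). Elf3, an epithelial ETS factor, had 5300 counts in the day 4 evening library, 896 away from and 11190 around the embryo. Its relative Ehf was lower around the embryo than on day 4 morning at a ratio of 0.261 (interval 0.247 to 0.275). Stat3, the factor downstream of Lif, was 2.30-fold higher (interval 2.21 to 2.39), and Grhl3 had 20 counts on day 3 morning and at most 2 in any other library.

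The fall from day 3 to day 4 morning was also set beside known oestrogen-responsive genes of the uterus. Of 13 that passed the filter, 10 were called lower and 1 higher, where 11.0% of all genes were called lower. Aqp5 and Gdf15 passed only through the day 3 library and had to be lower, and without them 8 of 11 were called lower and 1 higher (median -1.68). Ltf, the gene of lactoferrin, fell from 6232 to 932 counts, a ratio of 0.148 (interval 0.138 to 0.159). The summed level of the list did not fall, at 885 CPM on day 3 morning and 969 CPM on day 4 morning. From day 4 morning to day 4 evening the list was mixed, with 5 of the 13 called higher and 4 lower. Of all genes, 7.15% were called higher and 6.96% lower there. Lcn2, the gene of lipocalin 2, had 481, 58, 305, 1135 and 7123 counts from day 3 morning to day 5 around the embryo, and C3, the complement component, 348, 22, 141, 699 and 1116. Both were higher away from the embryo than on day 4 evening, but the list as a whole was mixed in that comparison. Of the 13, 3 were called higher and 3 lower, where 12.7% and 12.9% of all genes were. The summed level of the list went from 2172 to 612 CPM. Ctgf, from 29342 to 4716 counts, held most of the sum on day 4 evening. On day 5 around the embryo against day 4 morning, 6 of the 13 were called higher and 3 lower (median 0.81). Of all genes, 20.9% were called higher and 22.4% lower there.

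Among 8862 other genes whose mean CPM reached 10, the profile most like that of the summed members was Ptgs2, the gene of cyclooxygenase-2, which makes prostaglandins. The root mean square difference of their log2 CPM, each centred on its own mean over the 5 libraries, was 0.54. Its counts were 1553 in the day 3 library, 335 and 972 in the morning and evening libraries of day 4, and 67 away from and 8256 around the embryo. It was also the nearest to Sprr2f, at 0.42. Other near profiles for the summed members were those of Egr1, an immediate early transcription factor gene, at 1.00, Fgl2 at 1.00 and Tnc, the gene of tenascin C, at 1.04. For Sprr2f, Ptgs2 was followed by Cldn1, a tight junction gene, at 1.11 and Slc15a1, a peptide transporter gene, at 1.14. Sprr2g was nearest to Sulf2, an extracellular sulfatase gene, at 0.53, and Gprc5a stood at 0.73. The nearest to Sprr1a were Krt17 at 0.98, Tnfrsf12a at 1.40 and Slco2a1, a prostaglandin transporter gene, at 1.41. These distances rest on 5 libraries and are a description.

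**Figure D5:**
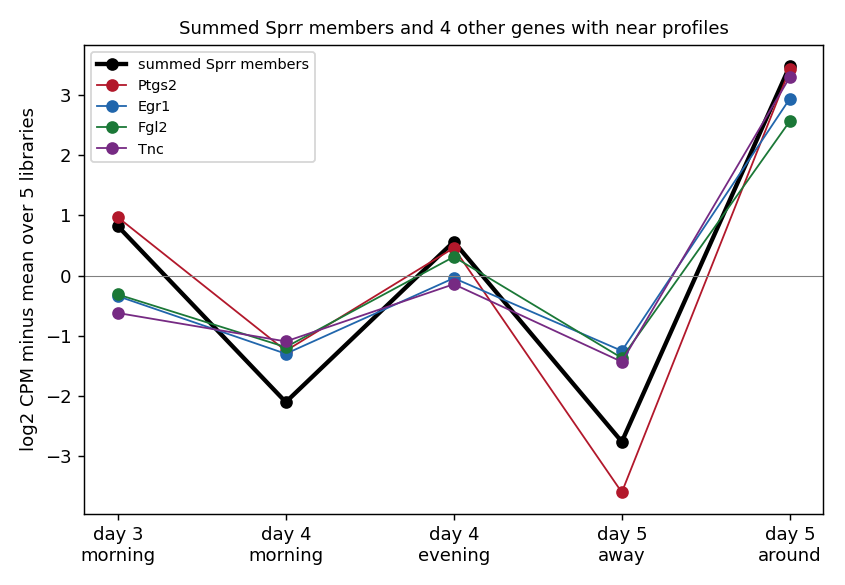
Log2 CPM minus its mean over the 5 libraries for the summed Sprr members (black) and 4 other genes with near profiles. Ptgs2 follows the summed members in all 5 libraries with a root mean square difference of 0.54, and both reach their lowest value away from the embryo and their highest around it.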

How the data were processed

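Laser-microdissected luminal layers of wild-type uteri were sequenced in 5 libraries, 1 per condition. The labels name the NucleoSpin RNA and SMART-seq v.4 Ultra Low Input kits, and the submitters' processing notes name HISAT2, GRCm38/mm10 and featureCounts of Subread 2.0.0. The authors deposited whole-number counts per gene, with no normalization, together with the gene length in bases that featureCounts gives. The gene annotation, the strand setting and the treatment of reads with several alignments were not given in the sources used here. The counts were used as deposited, in 1 table of 23420 genes.

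Libraries were scaled by TMM in edgeR 4.0.16 (R 4.3.3) on 12918 genes, those whose mean CPM reached 1. A prior count of 2 was added for log2 CPM, and RPKM is CPM per kilobase of the deposited length. Scripts used Python 3.11.15, pandas 2.3.3, numpy 2.4.6, scipy 1.17.1, biopython 1.88 and matplotlib 3.10.9. A gene was called when its log2 difference exceeded 1 in size, and no test was made. Intervals of count ratios and shares are exact Clopper-Pearson intervals at 95%, and a fold against 0 counts is a lower bound against 3 counts. Intervals and floors cover counting error only, since PCR reads are not independent molecules. The calls and intervals were run on simulated Poisson counts. These hold counting error only, so the run cannot show how either behaves with PCR copies or spread between animals.

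The members and all gene lists were chosen with earlier results of these data known. Named were all Sprr genes of the table, the 2 genes with the largest rise and fall of each list (mean of at least 10 CPM, day 5 around the embryo against day 4 morning), a fixed set of envelope and regulator genes, the nearest profiles and the neighbouring genes. Lce3a, Lce3c, Rptn, Jun, Ltf, the genes that passed the filter only through 1 library, Ctgf and the single embryo and blood genes were named after their values were seen. Some genes under this rule are not reported here. Promoters came from RefSeq, and transcripts and coding regions from GENCODE vM21. Alternatives were DESeq2 1.42.0 size factors, library totals with and without Rn45s and Lars2, a prior count of 0.5, no filter, a filter at a mean CPM of 5, a log2 difference of 2 and shares of RPKM.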

Additional observations from a re-analysis of the deposited data

How the results depend on the processing

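No summed Sprr level and no called member changed direction under any alternative run. Sprr2e, not called away from the embryo against day 4 morning (log2 difference -0.06), was at 0.20 with library totals and at 0.07 with totals without Rn45s and Lars2. With library totals, the log2 difference of the summed level was -3.26 for day 4 against day 3 morning, 2.73 for day 4 evening against morning, -3.09 for day 5 away against day 4 evening, 2.83 for day 5 around against day 4 evening, -0.36 for away against day 4 morning and 5.92 for around against away. With totals without Rn45s and Lars2, those that moved beyond counting error were -3.12 for day 4 against day 3 morning, -3.19 for day 5 away and 2.76 for day 5 around against day 4 evening, -0.51 for away and 5.44 for around against day 4 morning, and 5.95 for around against away. DESeq2 size factors gave 2.96 for around against day 4 evening. Away from the embryo against day 4 morning, 1 member was called lower with either library total, where 10.8% of all genes were, or 12.4% without Rn45s and Lars2. With a log2 difference beyond 2, 3 members were called higher on day 4 evening than on day 4 morning, where 2.36% of all genes were. Away against day 4 morning 0 were called higher and 0 lower, where 5.67% and 5.84% of all genes were. By RPKM, Sprr2f took 80.9% on day 3 morning, 43.0% on day 4 evening and 72.3% around the embryo, and the Sprr2 members took 99.4% on day 3 morning and 98.8% around the embryo. With a mean CPM of at least 5, fewer genes were compared (10426). Around the embryo against day 4 morning, 3 envelope precursors, 5 cross-linking or scaffold genes and 3 squamous keratins were then called higher. At the main filter these counts were 5, 9 and 6. Of all genes at the stricter filter, 18.9% were called higher and 20.0% lower. The 22 single member values that moved beyond counting error were those of Sprr2f and Sprr2g with either library total. For around against away, library totals gave log2 differences of 6.54 for Sprr2f and 2.95 for Sprr2g, in place of 6.88 and 3.29. Of the other values, 93 of the counts of called members, 8 of the summed levels, 5 of the shares, 230 of the single member values and 21 of the list counts stayed within counting error of the value given or, for counts of genes, within 1.5 times it. No paired analysis was possible because each condition had 1 library, and for the same reason no library could be left out of a group. Depth limits Sprr2b, Sprr2d, Sprr2e and Sprr1a in the 4 libraries in which they had under 200 counts.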
